A study of Homo sapiens with 8 samples.

Results

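The miR-200 family was analysed in 4 human cancer-derived cell lines as the mature miRNAs processed from the miR-200a, miR-200b and miR-429 hairpins on chromosome 1 and from the miR-200c and miR-141 hairpins on chromosome 12. Members were taken by name and not by a cut on their measured values, though with earlier results of these data known: hsa-miR-200a-3p, hsa-miR-200a-5p, hsa-miR-200b-3p, hsa-miR-200b-5p, hsa-miR-429, hsa-miR-200c-3p and hsa-miR-141-3p. These are 7 of 2588 mature miRNA names in the table, and each had a single entry, so no entries had to be summed. Small RNA-seq libraries came from the untreated parental lines ES-2 (ovarian cancer), MV-3 (melanoma), Huh-7 (hepatocellular carcinoma) and A-549 (lung adenocarcinoma), with 2 libraries per line and 8 in all. All 4 lines were kept in DMEM with 10% FBS and harvested 48 h after seeding, and no gene had been deleted or depleted in any of them. Each tumor type was represented by 1 line, so a difference between lines cannot be told apart from a difference between tumor types. The study describes the 2 libraries of each line as biological replicates. The p-values below weigh a difference against the spread between libraries within lines. In limma that spread is pooled for each miRNA over all 4 lines, so it is not specific to the lines compared. A line whose libraries hold no reads of a miRNA adds no spread, which can make the standard error too small for other lines.

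The miR-200 family is known as a guard of the epithelial state. Its 3p arms repress the mRNAs of ZEB1 and ZEB2, transcriptional repressors that silence E-cadherin and other epithelial genes during epithelial-to-mesenchymal transition. ZEB1 and ZEB2 in turn bind E-box motifs near the starts of both miR-200 host transcripts and repress them, so that miRNAs and repressors keep each other in check. A miRNA recognises its targets mainly through its seed, bases 2 to 8 from the 5′ end, and family members therefore fall into groups by seed. The strand of a hairpin that is loaded into Argonaute less often is usually far less abundant, and the 5p arms play this part in the miR-200 hairpins. Neither ZEB1, ZEB2 nor E-cadherin was measured in these libraries, which hold small RNA only.

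Mature sequences from RefSeq (GRCh38.p14, 5′ to 3′) are given because the seeds decide which members can be summed as one targeting activity. Capitals mark the seed.
hsa-miR-200b-3p: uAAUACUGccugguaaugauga
hsa-miR-429: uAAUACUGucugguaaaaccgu
hsa-miR-200c-3p: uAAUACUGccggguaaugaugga
hsa-miR-200a-3p: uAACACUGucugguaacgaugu
hsa-miR-141-3p: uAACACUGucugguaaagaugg
hsa-miR-200b-5p: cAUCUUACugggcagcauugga
hsa-miR-200a-5p: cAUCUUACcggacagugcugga

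All 7 members were matched in the RefSeq table of 2370 mature names. The seed AAUACUG was shared by miR-200b-3p, miR-429 and miR-200c-3p, which come from both chromosomes, and by no other name in that table. The seed AACACUG was held only by miR-200a-3p and miR-141-3p, and AUCUUAC only by the 5p arms miR-200b-5p and miR-200a-5p. A perfect seed match in a target mRNA reads CAGUAUU for AAUACUG members, CAGUGUU for AACACUG members and GUAAGAU for the 5p arms. The 2 large seed groups are set apart by 1 seed base, U4C from miR-200b-3p to miR-141-3p, with positions counted from 1 at the 5′ end of the mature miRNA. The closest members from different chromosomes are miR-200b-3p and miR-200c-3p, which differ over the 22 bases compared by U11G and A22G, and miR-200a-3p and miR-141-3p, which differ by C17A and U22G. How reads that align to several places were counted is not given in the sources used here, and reads that are too short or carry mismatches at these positions could be split between such members. Mature lengths were 22 bases, or 23 for miR-200c-3p, so that reads of different members refer to nearly the same length.

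The miR-200b, miR-200a and miR-429 hairpins lie on the plus strand at chr1:1167104-1167198, chr1:1167863-1167952 and chr1:1169005-1169087 (GRCh38, GENCODE 44). Together they span 1984 bases inside the RefSeq host transcript MIR200BHG (chr1:1162877-1170338). The miR-200c and miR-141 hairpins lie on the plus strand at chr12:6963699-6963766 and chr12:6964097-6964191, span 493 bases and fall in intronic sequence of the host gene MIR200CHG (chr12:6963226-6964447 in GENCODE 44). Hereafter these are called the chromosome 1 cluster, with 5 members, and the chromosome 12 cluster, with 2 members.

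Levels are given as reads and as normalised CPM, the deposited unit, in which reads per 1000000 miRNA reads are divided by the library's TMM factor (trimmed mean of M values). Total miRNA reads per library ranged from 1173902 to 2670030, and 3 reads, the limit that a count of 0 allows, corresponded to 0.845 to 2.45 normalised CPM. Intervals and floors cover counting error only, since reads were not shown to be separate molecules. The TMM factors ranged from 0.593 in A-549 replicate 2 to 1.70 in Huh-7 replicate 2, and comparisons between these lines depend on that scaling as given below. Hepatocyte markers (miR-122-5p, miR-122-3p and miR-885-5p) summed to 84702 to 89605 normalised CPM in Huh-7 and to at most 40.7 elsewhere. The 5 melanocyte or melanoma markers, miR-211-5p among them, had 0 reads in both MV-3 libraries, and all 5 had a few reads in Huh-7, so this list did not mark the MV-3 libraries. Of 5 blood cell markers, miR-142-3p and miR-142-5p were seen in both ES-2 libraries, with miR-223-3p and miR-144-3p at 0 there, and the list summed to 503 to 554 normalised CPM in ES-2 and to at most 3.27 in any other line. All 5 blood cell markers had 0 reads in MV-3. The part of the blood cell marker signal in the low family levels of ES-2 was not tested.

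The chromosome 1 cluster was abundant in Huh-7 and A-549 and far lower in ES-2 and MV-3. Its members summed to 2292 and 2197 normalised CPM in the 2 Huh-7 libraries and to 1618 and 1663 in A-549, against 9.72 and 7.19 in ES-2 and 17.0 and 22.0 in MV-3. The chromosome 12 cluster spanned a far narrower range, with means of 120.9 ± 12.5 in Huh-7, 80.3 ± 34.4 in A-549, 49.7 ± 1.33 in ES-2 and 18.6 ± 8.56 in MV-3 (SD, n = 2 each). miR-200b-3p and miR-200c-3p, which share a seed but lie on different chromosomes, followed different patterns. As a share of all miRNA reads, the 7 members together took 0.393% and 0.396% in Huh-7, 0.102% and 0.105% in A-549, 0.00523% and 0.00475% in ES-2, and 0.00341% and 0.00549% in MV-3.

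**Figure D1:**
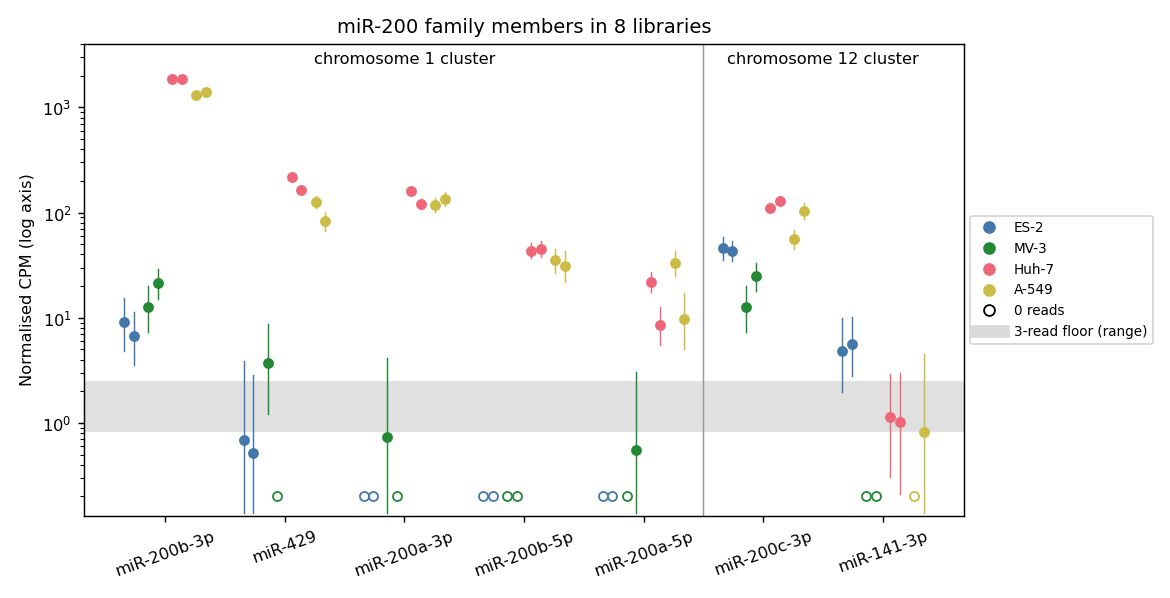
Normalised CPM (log axis) of the 7 members in each of the 8 libraries, coloured by line, with exact 95% Poisson intervals of the reads as bars, open circles for 0 reads and a grey band for the range of the 3-read floors (0.845 to 2.45). The 5 members of the chromosome 1 cluster sit high in the 4 libraries of Huh-7 and A-549 and at or near the floor in ES-2 and MV-3, except miR-200b-3p, which stays above the floor throughout, while miR-200c-3p is seen in all 8 libraries.

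hsa-miR-200b-3p (chr1:1167160-1167181), the most abundant member in Huh-7 and A-549, had 6558 and 5442 reads in Huh-7, 2120 and 1716 in A-549, 17 and 39 in MV-3 and 13 in each ES-2 library. In normalised CPM these were 1847 and 1859 in Huh-7, 1305 and 1403 in A-549, 12.6 and 21.4 in MV-3, and 9.02 and 6.68 in ES-2. Every library of Huh-7 and A-549 lay far above every library of ES-2 and MV-3, and the lines did not overlap at any step of the order Huh-7, A-549, MV-3 and ES-2. By mean library CPM, reads per 1000000 without a TMM factor, miR-200b-3p ranked 43rd of 1012 miRNAs seen in Huh-7 and 54th of 804 in A-549, against 266th of 839 in MV-3 and 314th of 799 in ES-2. The mean was 236-fold higher in Huh-7 and 172-fold higher in A-549 than in ES-2, and 109-fold and 79.7-fold higher than in MV-3. On the log2(normalised CPM + 1) scale used for the limma test, the difference between Huh-7 and ES-2 was 7.72 ± 0.26 (SE, adjusted p = 9.18e-07) and that between A-549 and ES-2 was 7.27 ± 0.26 (adjusted p = 2.83e-06). The differences from MV-3 were 6.73 for Huh-7 (adjusted p = 1.82e-06) and 6.28 for A-549 (adjusted p = 7.91e-06). The step from ES-2 to MV-3 was 0.99 ± 0.26 and did not pass the threshold of 0.01 (adjusted p = 0.0249), though it did without MV-3 replicate 1 (1.35, adjusted p = 0.00605), with library size only (1.39, adjusted p = 0.00707) and with DESeq2 (1.16, adjusted p = 0.00824).

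hsa-miR-429 (chr1:1169055-1169076), the most distal hairpin of the chromosome 1 cluster, had 780 and 482 reads in Huh-7, 205 and 101 in A-549, 5 and 0 in MV-3, and 1 in each ES-2 library. The Huh-7 values of 220 and 165 normalised CPM and the A-549 values of 126 and 82.6 did not overlap with each other or with any library of ES-2 or MV-3. ES-2 stayed below the 3-read floor in both libraries, as did MV-3 replicate 2. Pooled reads were 330-fold higher in Huh-7 than in ES-2 (95% counting interval 91.1 to 2727) and 182-fold higher in A-549 (50.0 to 1510). The limma differences were 6.90 ± 0.73 for Huh-7 against ES-2 (adjusted p = 0.000236), 6.01 for A-549 against ES-2 (0.000592), 6.46 for Huh-7 against MV-3 (0.000345) and 5.57 for A-549 against MV-3 (0.000918). Without A-549 replicate 1 the calls of A-549 were lost against ES-2 (5.71, adjusted p = 0.0112) and MV-3 (5.27, adjusted p = 0.015), as was that against MV-3 without A-549 replicate 2 (5.87, adjusted p = 0.0107). With an added constant of 0.1 in place of 1, both A-549 calls were lost as well (7.19, adjusted p = 0.0141 against ES-2 and 7.37, adjusted p = 0.013 against MV-3).

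hsa-miR-200c-3p (chr12:6963742-6963764), the chromosome 12 carrier of the AAUACUG seed, was the only member with more than 10 reads in every library other than miR-200b-3p. It had 394 and 377 reads in Huh-7, 91 and 127 in A-549, 66 and 84 in ES-2, and 17 and 45 in MV-3. In normalised CPM these were 110.9 and 129 in Huh-7, 56.0 and 104 in A-549, 45.8 and 43.1 in ES-2, and 12.6 and 24.7 in MV-3. On this scale the lines did not overlap, but the upper A-549 library lay close to the lower Huh-7 library and the lower A-549 library close to ES-2. In library CPM, without TMM factors, A-549 replicate 1 (34.1) lay below both ES-2 libraries (39.7 and 36.6). Means in normalised CPM were 2.69-fold higher in Huh-7 and 1.80-fold higher in A-549 than in ES-2, and 6.43-fold and 4.29-fold higher than in MV-3. The difference passed the limma test for Huh-7 against MV-3 (2.69 ± 0.40, adjusted p = 0.00135) and A-549 against MV-3 (2.05 ± 0.40, adjusted p = 0.00567). It did not pass for Huh-7 against ES-2 (1.41 ± 0.40, adjusted p = 0.0231), where edgeR's quasi-likelihood test gave an adjusted p of 0.00909 and limma with library size only one of 0.00201, nor for A-549 against ES-2 (0.77, 95% interval -0.21 to 1.75, adjusted p = 0.157). Between MV-3 and ES-2 the difference was -1.28 (95% interval -2.26 to -0.30, adjusted p = 0.0505). The A-549 call against MV-3 was lost on leaving out any 1 library except MV-3 replicate 2. Differences then ran from 1.59 (without MV-3 replicate 1) to 2.49 (without A-549 replicate 1). Without a library of ES-2 or Huh-7, lines outside this comparison, the difference stayed at 2.05 and the call was lost all the same. Such losses therefore do not show that the difference rested on single libraries. The call was also lost without TMM scaling (1.12, adjusted p = 0.0528) and without a filter on low reads (adjusted p = 0.0115). The Huh-7 call against MV-3 was lost without Huh-7 replicate 1 (2.80, adjusted p = 0.0163) or replicate 2 (2.58, adjusted p = 0.0197).

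hsa-miR-200a-3p (chr1:1167916-1167937), the chromosome 1 carrier of the AACACUG seed, had 570 and 351 reads in Huh-7 and 192 and 166 in A-549. ES-2 had 0 reads in both libraries, and MV-3 had 1 and 0. In normalised CPM, Huh-7 at 160 and 120 and A-549 at 118 and 136 overlapped, so these lines were not separated for miR-200a-3p. Taking 3 reads per ES-2 library as the limit, the Huh-7 mean of miR-200a-3p was at least 77.4-fold and the A-549 mean at least 70.1-fold that of ES-2. The limma differences from ES-2 were 7.13 ± 0.41 for Huh-7 (adjusted p = 1.26e-05) and 7.0 ± 0.41 for A-549 (adjusted p = 2.19e-05), and those from MV-3 were 6.73 (1.91e-05) and 6.6 (3.62e-05). These fitted values depend on the added constant because ES-2 and MV-3 were at or near 0.

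hsa-miR-141-3p (chr12:6964155-6964176), which shares the seed of miR-200a-3p, was nearly undetected. It had 7 and 11 reads in ES-2, 4 and 3 in Huh-7, 0 and 1 in A-549 and 0 in both MV-3 libraries, equal to 4.86 and 5.65 normalised CPM in ES-2, 1.13 and 1.02 in Huh-7, and 0 and 0.818 in A-549. The order was thus unlike that of every other member, with ES-2 above the other lines, yet close to the floor of 3 reads. The ES-2 mean was 4.89-fold that of Huh-7 and at least 2.72-fold higher than in MV-3, and pooled reads were 15.1-fold higher than in A-549 (95% counting interval 2.39 to 630). The filter on low reads removed miR-141-3p from the main test. Without the filter, limma called it lower in MV-3 than in ES-2 (-2.64 ± 0.44, adjusted p = 0.00792), and its difference from ES-2 did not pass in A-549 (-2.21, adjusted p = 0.0123) or Huh-7 (-1.59, adjusted p = 0.039). In Huh-7, miR-141-3p gave 1.02% and 0.796% of the reads of miR-200c-3p, its cluster partner, and in ES-2 10.6% and 13.1%. At the depth of MV-3, where miR-200c-3p itself had 17 and 45 reads, a share of miR-141-3p among the reads of both of up to 19.5% and 7.87% was allowed by the exact binomial intervals.

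The 5p arms were the minor products wherever both arms could be seen. hsa-miR-200b-5p (chr1:1167124-1167145) had 154 and 132 reads in Huh-7, 57 and 38 in A-549, and 0 in all 4 libraries of ES-2 and MV-3. Set against 3 reads per library, its Huh-7 mean was at least 24.4-fold that of ES-2 and 22.9-fold that of MV-3, and its A-549 mean was at least 18.3-fold and 17.1-fold higher. The limma differences were 5.5 ± 0.31 for Huh-7 (adjusted p = 1.17e-05 against ES-2 and 1.29e-05 against MV-3) and 5.09 ± 0.31 for A-549 (2.55e-05 and 3.57e-05). Because ES-2 and MV-3 were at 0, the size of these fitted differences depends on the constant added and on the tool. It ranged over the alternatives from 3.30 to 9.46 for Huh-7 against ES-2 and from 2.93 to 9.04 for A-549 against ES-2. The ratio of arms was steady, with 5p reads at 2.35% and 2.43% of 3p reads in Huh-7 and at 2.69% and 2.21% in A-549. With 13 miR-200b-3p reads in each ES-2 library and 17 and 39 in MV-3, 0 reads of the 5p arm allowed a 5p share of both arms of up to 24.7%, 24.7%, 19.5% and 9.03% (exact 95% binomial intervals), so an arm ratio like that of Huh-7 was within the limits of this depth.

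hsa-miR-200a-5p (chr1:1167878-1167899) was lower and far more variable between libraries of a line. It had 78 and 25 reads in Huh-7, 54 and 12 in A-549, 0 and 1 in MV-3 and 0 in both ES-2 libraries. The replicates of Huh-7 (22.0 and 8.54 normalised CPM) and A-549 (33.2 and 9.81) spread more widely than the means of these lines differed. Compared with miR-200a-3p, its reads were 13.7% and 7.12% in Huh-7 and 28.1% and 7.23% in A-549, so replicate 2 was alike in both lines and replicate 1 was not. As a share of both arms, the exact 95% binomial interval of A-549 replicate 1 (16.9% to 27.7%) did not overlap with that of A-549 replicate 2 (3.53% to 11.5%). Against the ES-2 floor, miR-200a-5p was higher by at least 8.42-fold in Huh-7 and 11.9-fold in A-549. miR-200a-5p passed the filter on low reads only through Huh-7 and A-549, so the p-values that follow are a description. All of its limma differences from ES-2 and MV-3 passed the test, at 3.89 ± 0.67 (Huh-7 against ES-2, adjusted p = 0.00257), 4.27 (A-549 against ES-2, 0.00199), 3.57 (Huh-7 against MV-3, 0.00392) and 3.95 (A-549 against MV-3, 0.00299). Each was lost on leaving out either ES-2 library. The differences themselves did not change in size then (3.57 and 3.95 against MV-3). ES-2 enters the tests against MV-3 only through the pooled spread, to which its libraries without reads add none. The differences from MV-3 were also lost without either MV-3 library (3.26 to 4.27). Leaving out Huh-7 replicate 1 (3.25 against ES-2, adjusted p = 0.0247, and 2.94 against MV-3, 0.0354), Huh-7 replicate 2 (4.21 against MV-3, 0.0111) or A-549 replicate 1 (3.43 against ES-2, 0.0117, and 3.12 against MV-3, 0.0164) had the same outcome. With an added constant of 5, the Huh-7 calls were also lost (1.93, adjusted p = 0.0108 against ES-2 and 1.86, adjusted p = 0.0133 against MV-3).

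The remaining arms of the chromosome 12 hairpins, miR-200c-5p and miR-141-5p, are not members and had 0 reads in all 8 libraries. Among the members, the 3p arm miR-200c-3p was therefore the product by which the chromosome 12 cluster could be followed.

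Each pair of lines was compared across 528 miRNAs that passed the filter on low reads, which included 6 of the 7 members. Of these 6, miR-200a-3p, miR-200a-5p, miR-200b-5p and miR-429 passed only through their reads in Huh-7 and A-549. Their p-values against ES-2 and MV-3 and the counts of called members are therefore a description. Called means an adjusted p below 0.01 by limma. In Huh-7 against ES-2, 5 of 6 members were called and all 5 were higher, where 49.2% of all miRNAs tested were called and 27.7% were called higher. A-549 against ES-2 also gave 5 of 6, all higher, beside 41.3% called and 23.7% called higher among all. In both, miR-200c-3p was the member not called. Against MV-3, 6 of 6 members were called higher in Huh-7 (47.0% of all called, 26.9% higher) and 6 of 6 in A-549 (39.6% of all called, 24.1% higher). The medians of the log2 difference over all 528 miRNAs lay between -0.09 and 0.34, far from the differences of the chromosome 1 members. In the joint comparison of the 4 lines, 6 of 6 members were called beside 68.2% of all. Without either ES-2 library, miR-200a-5p and miR-200c-3p were lost from the joint call. Without A-549 replicate 1, fewer members were called for A-549 against ES-2 and against MV-3. Fewer of all miRNAs tested were called in each of these fits as well. With edgeR the counts were 6 of 6 for Huh-7 against ES-2 (49.2% of all), 5 of 6 for A-549 against ES-2 (38.6%), 6 of 6 for Huh-7 against MV-3 (45.6%), 6 of 6 for A-549 against MV-3 (40.3%) and 6 of 6 jointly (70.3%). These comparisons share libraries and are not independent of each other. In normalised CPM, all of the 7 members but miR-141-3p had all 4 libraries of Huh-7 and A-549 above all 4 of ES-2 and MV-3, as did 12.3% of the miRNAs tested. In library CPM this did not hold for miR-200c-3p, for which A-549 replicate 1 lay below both ES-2 libraries.

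**Figure D2:**
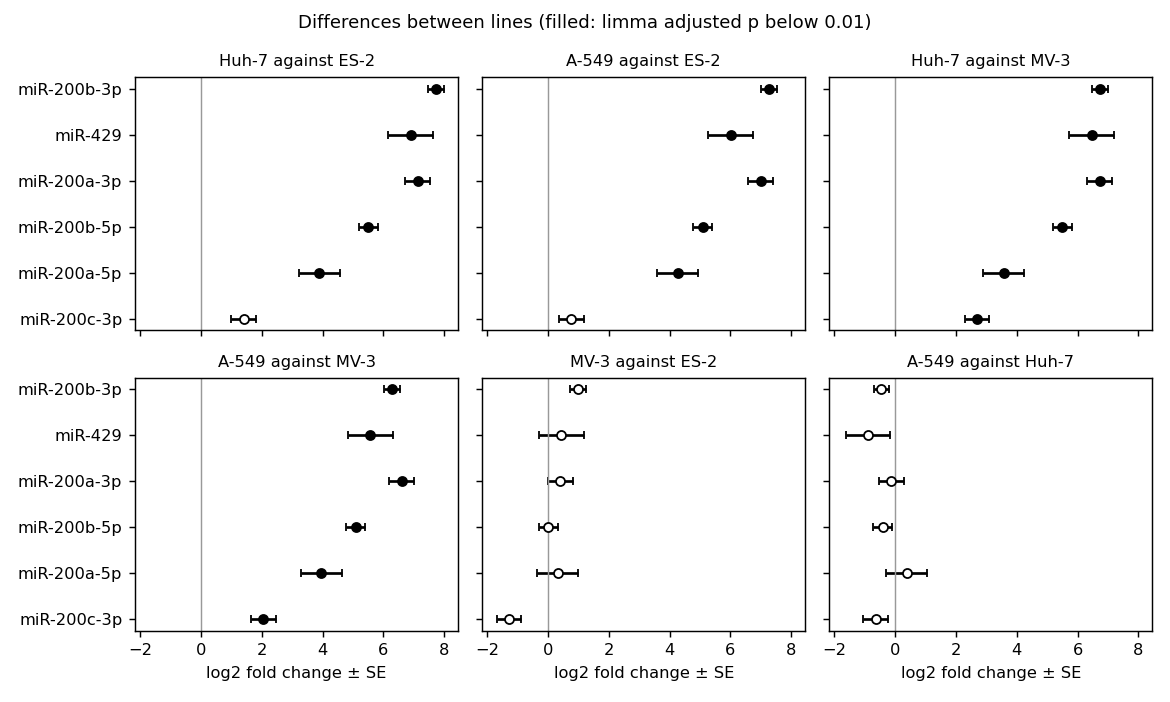
Log2 fold change ± SE (log2(normalised CPM + 1), limma) of the 6 tested members in each of the 6 pairs of lines, with the first line of a title set against the second and filled points for an adjusted p below 0.01. Chromosome 1 members reach differences of 3.57 to 7.72 in the 4 panels that set Huh-7 or A-549 against ES-2 or MV-3, miR-200c-3p stays between 0.77 and 2.69 there, and no point is filled for MV-3 against ES-2 or A-549 against Huh-7.

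Between the low lines MV-3 and ES-2, limma called 0 of 6 members, beside 25.8% of all miRNAs tested. At an unadjusted limma p below 0.05, 2 of 6 members passed, miR-200b-3p higher and miR-200c-3p lower in MV-3, beside 232 of all 528 miRNAs tested. edgeR called 0 members (26.1% of all). DESeq2 called 1, miR-200b-3p, beside 157 of all 528, as did limma with library size only, beside 143 of all 528. The remaining 4 tested members had at most 5 reads in any library of these lines, so a difference between them was not detectable at this depth.

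Between the high lines A-549 and Huh-7, limma called 0 of 6 members, beside 52.3% of all miRNAs tested. None of the 6 had an unadjusted limma p below 0.05, beside 354 of all 528 miRNAs tested. edgeR also called 0 (53.4% of all), with 1 member, miR-200b-3p, at an unadjusted p below 0.05. DESeq2 called 0, beside 260 of all 528. The differences, A-549 minus Huh-7, were -0.45 for miR-200b-3p (95% interval -1.08 to 0.17), -0.41 for miR-200b-5p (-1.17 to 0.35), -0.64 for miR-200c-3p (-1.62 to 0.34), -0.89 for miR-429 (-2.67 to 0.89), -0.13 for miR-200a-3p (-1.13 to 0.87) and 0.38 for miR-200a-5p (-1.26 to 2.01). These intervals do not show that levels were alike in both lines. The outcome also depended on the TMM factors, which differed up to 2.87-fold between libraries of the 2 lines. When reads were scaled by library size only, miR-200b-3p (-1.93, adjusted p = 0.000708), miR-200b-5p (-1.84, adjusted p = 0.00175) and miR-200c-3p (-2.10, adjusted p = 0.00329) were called lower in A-549, miR-200a-5p turned to -0.99 (adjusted p = 0.223), and the median over all miRNAs moved by -1.28 to -1.38. Relative to the median of all miRNAs, the difference of miR-200b-3p was -0.36 with TMM factors and -0.55 without them, and that of miR-200c-3p was -0.55 and -0.72.

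Without TMM factors the medians of the other pairs moved by 0.74 for Huh-7 against ES-2, 0.36 for MV-3 against ES-2, -0.28 for A-549 against ES-2, 0.41 for Huh-7 against MV-3 and -0.61 for A-549 against MV-3. The split of calls shifted too. Huh-7 against ES-2 went from 146 higher and 114 lower miRNAs to 227 and 87, MV-3 against ES-2 from 61 and 75 to 85 and 58, A-549 against ES-2 from 125 and 93 to 112 and 140, A-549 against MV-3 from 127 and 82 to 82 and 159, and A-549 against Huh-7 from 151 and 125 to 111 and 244. The members of the chromosome 1 cluster were called higher in Huh-7 and A-549 than in ES-2 and MV-3 on both scales.

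The makeup of the family was described within each library, where scaling plays no part. In Huh-7 and A-549, the chromosome 1 cluster gave 94.1% to 96.7% of member reads, and miR-200b-3p alone gave 76.8% and 79.9% in Huh-7 and 78.0% and 79.4% in A-549. In ES-2 the chromosome 1 cluster gave only 16.1% and 12.8%, and miR-200c-3p gave 75.9% and 77.1%. MV-3 lay between, with 57.5% and 47.1% from chromosome 1. Reads of miR-200c-3p were 508% and 646% of those of miR-200b-3p in ES-2, 100% and 115% in MV-3, and from 4.29% to 7.40% in the libraries of A-549 and Huh-7. Among the reads of miR-200b-3p and miR-200c-3p, the share of miR-200c-3p in ES-2 had exact 95% intervals of 73.5% to 90.9% and 78.2% to 92.7%, apart from those of MV-3 (32.4% to 67.6% and 42.4% to 64.5%) and of Huh-7 and A-549 (at most 8.14%).

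**Figure D3:**
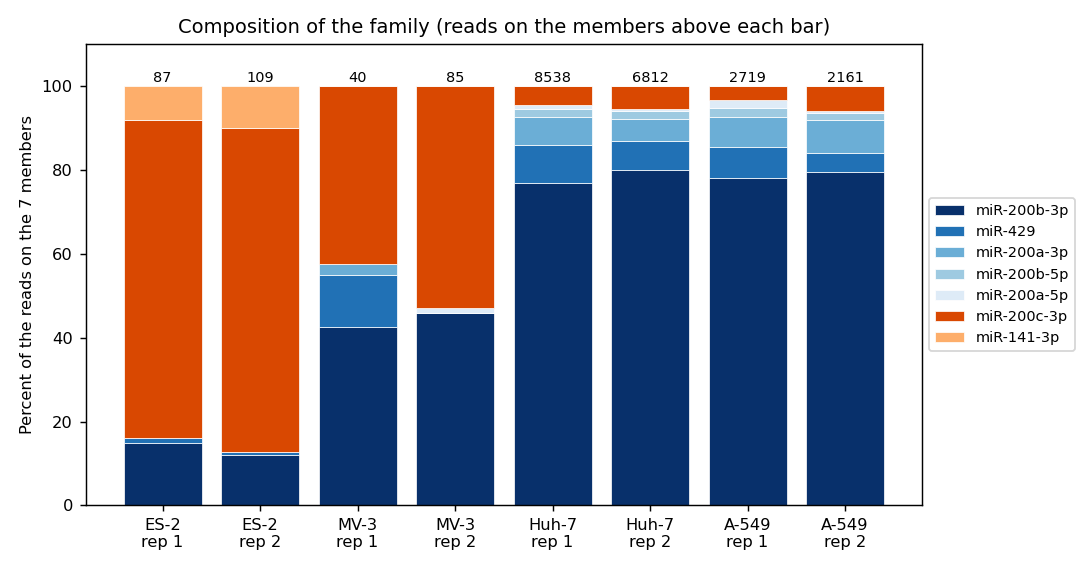
Share of each member among the reads on the 7 members, in percent, for each of the 8 libraries, with chromosome 1 members in blue, chromosome 12 members in orange and the number of member reads above each bar. Bars of Huh-7 and A-549 (2161 to 8538 reads) are filled mostly by miR-200b-3p, those of ES-2 (87 and 109 reads) mostly by miR-200c-3p, and those of MV-3 (40 and 85 reads) by both.

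Reads were also summed by seed, though targeting itself was not measured. AAUACUG held most of the 3p member reads in every line. It accounted for 93.1% and 94.7% of 3p member reads in Huh-7, 92.6% and 92.1% in A-549, 92.0% and 89.9% in ES-2, and 97.5% and 100% in MV-3. Its sum was 2165 ± 17.8 normalised CPM in Huh-7, 1538 ± 72.6 in A-549, 52.9 ± 3.68 in ES-2 and 37.5 ± 12.2 in MV-3 (SD, n = 2 each). The carriers differed, since the same seed came mostly from miR-200b-3p in Huh-7 and A-549 and mostly from miR-200c-3p in ES-2. For AACACUG, the sums were 141.3 ± 28.8 in Huh-7 and 127 ± 13 in A-549, almost all from miR-200a-3p, and 5.25 ± 0.559 in ES-2, all from miR-141-3p. MV-3 held a single AACACUG read, in replicate 1.

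Over the 8 libraries, log2(normalised CPM + 1) of the 5 chromosome 1 members correlated with each other with Pearson's r of 0.935 to 0.996, and with miR-200c-3p with r of 0.717 to 0.828. Points come in 4 pairs of libraries from 1 line, so these values mostly restate the order of the lines. Among 522 other miRNAs tested, those most like the summed chromosome 1 cluster were miR-194-5p (r = 0.992), miR-192-5p (r = 0.992) and miR-126-3p (r = 0.989), where the median over candidates was 0.218. miR-194-5p averaged 4828 normalised CPM in Huh-7 and 3148 in A-549, against 67.0 in ES-2 and 64.1 in MV-3. miR-192-5p averaged 5030 in Huh-7, 4540 in A-549, 76.1 in ES-2 and 77.8 in MV-3, and both are known to be abundant in liver and gut epithelium. miR-126-3p, known from endothelial cells, averaged 453, 340, 9.72 and 27.9 in the same order. For the chromosome 12 cluster the most alike were miR-423-3p (r = 0.983), miR-423-5p (r = 0.964) and miR-196b-5p (r = 0.937), beside a median of 0.111. The miR-423 arms spanned a narrow range, with miR-423-3p between 5693 in MV-3 and 10775 in Huh-7.

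Other miRNAs that are usually assigned to epithelial cells did not follow the family as a block. Of the 7 in the epithelial list, which like the mesenchymal list was chosen with earlier results of these data known, 4 were tested. miR-182-5p was called higher in Huh-7 and A-549 than in both ES-2 and MV-3, by 0.95 to 1.23 on the log2 scale, far less than the chromosome 1 members. miR-183-5p, from the same polycistron, was called higher than in ES-2 in MV-3 (0.36), A-549 (0.59) and Huh-7 (0.69), and higher than in MV-3 in Huh-7 (0.33). For miR-96-5p no pair of lines was called, at 205 normalised CPM in A-549, 108 in Huh-7, 76.8 in ES-2 and 62.1 in MV-3. miR-375 had 215 and 219 normalised CPM in Huh-7, 60.9 and 77.7 in A-549, 12.6 and 2.20 in MV-3, and 4.17 and 86.8 in ES-2, where replicates lay furthest apart, and no difference was called. miR-205-5p and miR-203a-3p, abundant in keratinocytes and squamous epithelium, reached at most 3.27 and 6.68 normalised CPM in any library. Of 4 tested, the list gave 2 higher and 0 lower calls for Huh-7 against ES-2, A-549 against ES-2 and Huh-7 against MV-3. It gave 1 and 0 for A-549 against MV-3 and MV-3 against ES-2, and 0 for A-549 against Huh-7. Of all miRNAs tested, 49.2%, 41.3%, 47.0%, 39.6%, 25.8% and 52.3% were called for these pairs in that order. In the first 4 of these pairs, 27.7%, 23.7%, 26.9% and 24.1% were called higher. The list had median differences of 0.91 for Huh-7 against ES-2 and 1.32 for A-549 against ES-2. All miRNAs tested had medians of 0.34 and 0.00 there.

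Of the 10 miRNAs in the mesenchymal list, 8 were tested. miR-199a-5p averaged 781 ± 28.5 normalised CPM in ES-2 and 1135 ± 88.6 in MV-3, against 1.90 ± 0.695 in Huh-7 and 2.26 ± 2.03 in A-549, so ES-2 and MV-3 were the high lines here and the low lines for the chromosome 1 cluster. miR-199a-3p and miR-199b-3p, which share a mature sequence and may share reads, were also called lower in Huh-7 and A-549 than in ES-2 and MV-3, at log2 differences of -8.95 to -10.20. miR-199b-5p averaged 61.8 ± 21.6 normalised CPM in ES-2 and 4.58 ± 0.686 in Huh-7, with 0 reads in A-549 and MV-3. In contrast, miR-143-3p was called higher than in ES-2 in A-549 (7.31), MV-3 (6.0) and Huh-7 (3.96), reaching 2561 ± 78.6 normalised CPM in A-549, and miR-145-5p was called higher in the same lines (4.68, 3.51 and 3.84). miR-143-3p and miR-145-5p come from 1 cluster and are known from smooth muscle and fibroblasts. miR-214-3p was called higher in MV-3, at 33.4 ± 11.7, than in ES-2, Huh-7 and A-549, at 0.514, 0.875 and 3.68. Counts of higher and lower calls were 3 and 4 for Huh-7 against ES-2, 3 and 4 for A-549 against ES-2, 1 and 5 for Huh-7 against MV-3, 0 and 4 for A-549 against MV-3, 4 and 1 for MV-3 against ES-2, and 1 and 1 for A-549 against Huh-7. With the pairs in the same order, the shares called in either direction among all 528 miRNAs tested were 49.2%, 41.3%, 47.0%, 39.6%, 25.8% and 52.3%. Medians of the list were -1.56, -2.13, -3.13, -1.44, 1.63 and 0.69 in that order, where those of all miRNAs tested were 0.34, 0.00, 0.19, 0.08, 0.00 and -0.09.

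**Figure D4:**
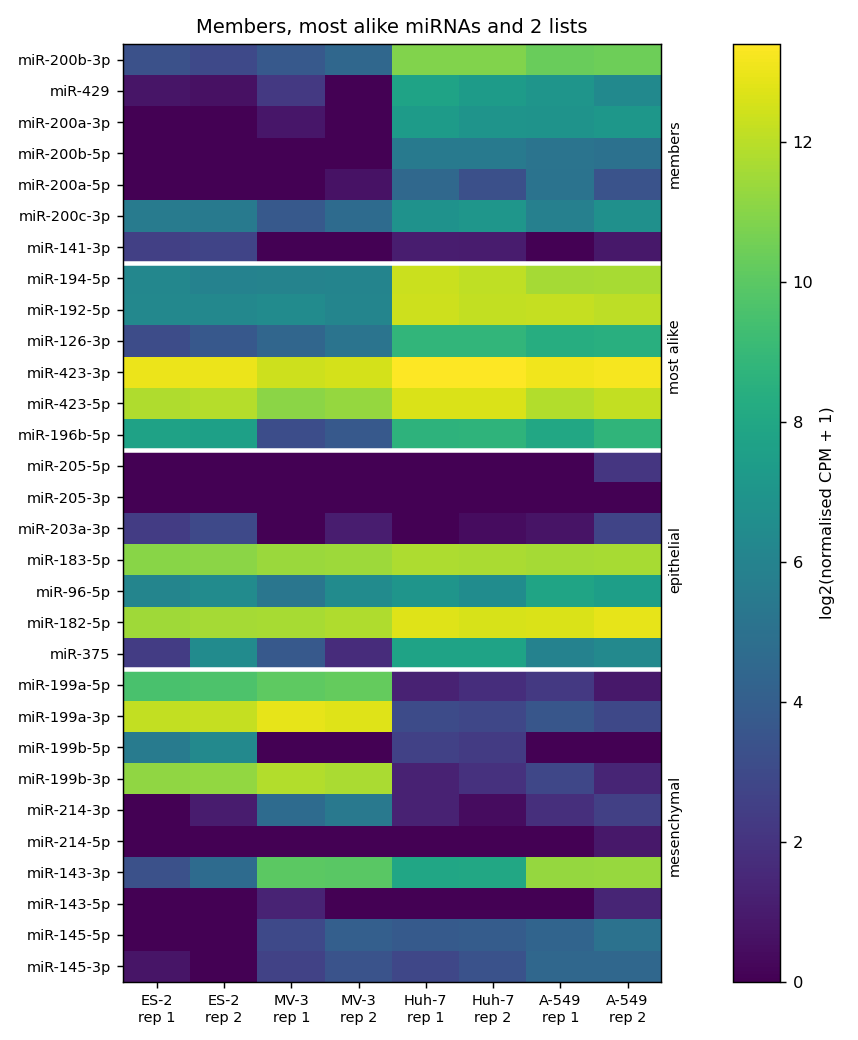
Log2(normalised CPM + 1) in the 8 libraries for the 7 members, the 6 miRNAs most alike to the clusters, the 7 miRNAs of the epithelial list and the 10 of the mesenchymal list. The chromosome 1 members and miR-192-5p, miR-194-5p and miR-126-3p are bright in Huh-7 and A-549 and dark in ES-2 and MV-3, the miR-199a and miR-199b-3p rows show the reverse, and the miR-205 and miR-203a-3p rows are dark in all lines.

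E-box motifs were searched in the windows around the RefSeq starts of both host transcripts, because this is the site through which ZEB1 and ZEB2 are known to act on the family. Each window held 300 bases, 250 before and 50 after the start, and the motif was read as CACCTG or, on the other strand, CAGGTG. The MIR200BHG window held 2 matches, 102 and 58 bases before the start, and the MIR200CHG window held 1, 78 bases before the start. They are shown on the plus strand of GRCh38.p14 with 10 bases on each side and the motif in capitals, to show the letters shared by both loci.
MIR200BHG, chr1:1162765-1162790: ccaggggacaCACCTGtcgggggcca
MIR200BHG, chr1:1162809-1162834: cgggagctcgCACCTGtgtggggcgg
MIR200CHG, chr12:6963157-6963182: caggaggacaCACCTGtgcgcagggt

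Of 35116 windows of the same length, 20.6% held at least 1 match and 3.49% held at least 2. A match describes letters only, and binding of ZEB1 or ZEB2 was not measured here.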

How the data were processed

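Small RNA-seq libraries were generated by the authors from 50 ng of total RNA with a NEXTflex small RNA kit (v3) and sequenced on an Illumina HiSeq. Per the study's methods and the submitters' processing notes, reads were clipped with Cutadapt (v 1.14), aligned to GRCh38 with Bowtie2 (v 2.3.2), summarized with featureCounts (v 1.5.3) on miRBase and normalised by TMM in edgeR (v 3.18.1). Multimapping and strand settings, and the handling of the kit's random adapter bases, are not given in the sources used here. The authors deposited a normalised signal per mature miRNA, which is a whole number of reads times 1 constant per library. With a tolerance of 0.001, 100% of values came out whole, and the scaling of each library was matched by fresh TMM factors to within 3.5e-15 (relative).

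Entries of a name were summed. The deposited values were tested as log2(normalised CPM + 1) with limma (v 3.58.1, mean-dependent prior variance, 1 term per line, 8 libraries, R v 4.3.3), because they are not counts. The filter on low reads (filterByExpr) kept 528 names, p-values were adjusted over these by Benjamini-Hochberg, and the threshold was 0.01. The 95% intervals of differences come from the same fit. edgeR (v 4.0.16) on the recovered reads, which called 371 of 528 names among the 4 lines, and DESeq2 (v 1.42.0) served as alternatives, together with other scalings, filters, added constants, a replicate block and leaving out each library in turn. The limma step was checked on simulated data.

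A line with 0 reads in all libraries was set to 3 reads per library for fold changes. For a line with 1 to 3 reads in all, the ratio of pooled reads is given with its exact 95% interval. miRNAs named are the 7 members, the other arms of their hairpins, the epithelial, mesenchymal and marker lists, and the 3 miRNAs with the highest r with each summed cluster. Members and lists were chosen with earlier results of these data known. Samples were grouped by the line in their titles.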

Additional observations from a re-analysis of the deposited data

How the results depend on the processing

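Of 798 values of single members under an alternative, 738 kept their direction and their side of the threshold, 42 were no longer called, 10 became called and 8 changed direction. The 738 include differences that could not change, as with the highest entry of each name, since each member had 1 entry. In the joint comparison only the side of the threshold was compared. Called members between MV-3 and ES-2 went from 0 to 1 with library size only, no filter, DESeq2 or an adjusted p below 0.05. Over all miRNAs these settings called 143, 135, 157 and 188, of 1327 without a filter and of 528 otherwise. Between A-549 and Huh-7, called members went from 0 to 3 with library size only, beside 355 of all 528, 244 of them lower. Without TMM factors, the ratio of Huh-7 over A-549 went from 1.37 to 3.80 for the chromosome 1 sum and from 1.5 to 4.20 for the chromosome 12 sum. Fewer members were called on leaving out some single libraries, such as A-549 replicate 1 for A-549 against ES-2 and against MV-3, or either ES-2 library jointly. Between MV-3 and ES-2, miR-200b-3p became called without MV-3 replicate 1 (1.35), and between A-549 and Huh-7 no member was called in any such fit. For every pair but A-549 against Huh-7, and jointly, leaving out any 1 library also lowered the calls over all miRNAs tested, so such drops were not particular to the members. A line left with 1 library was assumed to vary like the others. Direction changed only for uncalled differences. For miR-429 in MV-3 against ES-2 it was -0.18 with an added constant of 0.1 and -0.68 to 1.55 on leaving out 1 library (lowest without MV-3 replicate 1). For A-549 against Huh-7, miR-200a-3p was at 0.0987 with RLE size factors, 0.101 with DESeq2 and -0.34 to 0.0789 on leaving out 1 library (highest without Huh-7 replicate 1), and miR-200a-5p at -0.99 with library size only and -0.45 to 1.21 on leaving out 1 library (below 0 without A-549 replicate 1 or Huh-7 replicate 2). Apart from what the alternatives themselves remove or rescale, the cause was not tested.

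Labels share only a replicate number between lines. Differences between replicates correlated between lines with r of -0.05 to 0.23 over 528 miRNAs. With a replicate block, 5, 0, 5, 6, 6 and 0 of 6 members were called for Huh-7 against ES-2, MV-3 against ES-2, A-549 against ES-2, Huh-7 against MV-3, A-549 against MV-3 and A-549 against Huh-7, and 6 jointly, as without it. Depth limits miR-141-3p, the 5p arms and the ES-2 and MV-3 levels of miR-200a-3p and miR-429, which rest on at most 11 reads in those lines.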
